A study of Homo sapiens with 6 samples.

Results

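The genes described here are 9 genes known as targets of the tumour suppressor p53 or as growth arrest genes: CDKN1A, MDM2, GADD45A, GADD45B, FAS, TNFRSF10B, SESN1, ZMAT3 and BTG2. They were taken from the deposited table by gene symbol, 9 of 58735 genes, and all 9 passed the filter of a mean of at least 1 FPKM that left 12177 genes. The series asked what the warmth-activated calcium channel TRPV3 does to inflammation in human sebocytes. It holds 6 RNA-seq libraries of SZ95, an immortalised human sebaceous gland line: 3 from cells given a TRPV3-overexpression plasmid (labelled genotype TRPV3 overexpression), and 3 from cells given a mock plasmid (labelled WT), both at 24 h. As background, SZ95 was immortalised with SV40 large T antigen, a viral protein that binds p53, and both groups share it. The plasmid's promoter and the share of cells that took it up are not stated by the labels. Because each library is a bulk sample, a strong change in few cells and a weak change in all of them cannot be told apart.

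p53 is a transcription factor that MDM2 keeps scarce by marking it for degradation. When DNA damage or other stress frees it, p53 switches on genes that stop the cell cycle, repair DNA or kill the cell, and it also switches on MDM2, which closes a feedback loop. CDKN1A encodes p21, which blocks cyclin-dependent kinases, and GADD45A, GADD45B and BTG2 also restrain growth. FAS and TNFRSF10B encode death receptors at the cell surface, SESN1 encodes a sestrin that dampens growth signalling, and ZMAT3 encodes an RNA-binding protein. Several of these genes answer to other signals too: GADD45B and FAS to NF-kB, GADD45A and TNFRSF10B to endoplasmic reticulum stress, and BTG2 to growth factors.

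Start regions of 4 genes are shown: FAS and SESN1 for a p53 half-site, CDKN1A for GC boxes and GADD45B for a TATA box. Of the 9 genes, 7 matched RefSeq promoter windows (GRCh38.p14, 300 bases each, 15 windows in all, several genes having more than 1). FAS and SESN1 each held an exact match to the p53 half-site consensus on either strand. The windows of CDKN1A, GADD45B, MDM2, BTG2 and ZMAT3 held none. A window runs from 250 bases before a start to 50 after it, and sequence farther away was not searched. The match was in 2 of the 15 windows, beside 6.63% of all 35116 windows. GC boxes (GGGCGG on either strand) stood in windows of 6 of the 7 genes, CDKN1A among them and GADD45B not. By window this was 13 of the 15, beside 45% of all windows. GADD45B was the only one of the 7 with a TATA box (TATAAA, in 1 of the 15 windows, beside 11.5% of all windows). Capitals mark the p53 half-site in FAS and SESN1, the GC boxes inside the CDKN1A stretch and the TATA box in GADD45B. The CDKN1A window held 4 GC boxes, and those 45 and 40 bases before the start lie outside the stretch. The stretches are chr10:88991299-88991328 for FAS (plus strand, inside an annotated exon), chr6:109008989-109009148 for SESN1 (minus strand), chr6:36678554-36678657 for CDKN1A (plus strand) and chr19:2475967-2476121 for GADD45B (plus strand).
FAS: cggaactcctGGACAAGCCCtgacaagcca
SESN1: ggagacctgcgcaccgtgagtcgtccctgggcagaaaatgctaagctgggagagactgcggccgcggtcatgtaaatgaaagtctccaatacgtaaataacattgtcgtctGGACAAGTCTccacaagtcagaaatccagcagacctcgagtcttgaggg
CDKN1A: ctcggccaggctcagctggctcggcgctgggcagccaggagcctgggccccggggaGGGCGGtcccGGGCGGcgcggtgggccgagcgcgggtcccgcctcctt
GADD45B: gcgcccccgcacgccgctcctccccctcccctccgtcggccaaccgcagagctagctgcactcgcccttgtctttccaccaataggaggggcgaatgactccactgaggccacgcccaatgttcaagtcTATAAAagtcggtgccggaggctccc
AP-1 sites (TGANTCA, both strands) were found in windows of FAS and MDM2, and NF-kB sites in windows of FAS, GADD45B and ZMAT3. By window this was 3 of the 15 for each, beside 7.71% and 11.3% of all windows. No CRE (TGACGTCA, in 1.85% of all windows) stood in a window of the 7. CCAAT boxes (CCAAT) stood in windows of 5 of the 7, namely BTG2, GADD45B, MDM2, SESN1 and ZMAT3. By window this was 9 of the 15, beside 34.6% of all windows. A gene had from 1 to 4 windows, so counts of genes do not compare with shares of windows. Windows of a gene can also overlap, so that 1 site counts in more than 1 window. In MDM2, for example, the AP-1 match stood 118 bases before 1 start and 125 before another. Counts of windows are therefore not counts of separate sites. All of these are matches of letters only.

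TRPV3 itself checks the labels. It stood at 536, 671 and 738 FPKM (the deposited unit: fragments per kilobase of exons, divided by a depth factor) in TRPV3 replicates 1 to 3, against 0.437, 0.359 and 0.415 FPKM in the mock libraries. The libraries held 16.0 to 18.4 M reads, which can be recovered from the FPKM values, and the 9 genes had between 89 (SESN1) and 2072 (CDKN1A) reads in a library. TRPV3 replicate 1 stood apart from the other libraries by gene length. Its values differed from the mean of TRPV3 replicates 2 and 3 by a median of 0.33 (log2) in 2069 genes under 2 kb and of -0.33 in 1686 genes over 9 kb. Results are therefore also given without it. Of the fixed sebocyte markers, KRT7 stood at 552 ± 89.3 FPKM with TRPV3 and 513 ± 15.4 FPKM with mock, and SCD at 219 ± 42.6 and 227 ± 22.4 FPKM (SD, n = 3 each). Of the 10 sebocyte markers, 8 passed the filter of 1 FPKM. MC5R lay below it, and AWAT2, a marker of mature sebocytes, had no read in any library. Fibroblast, immune, melanocyte and endothelial markers (19 genes) summed to at most 2.25, 1.8 and 2.57 FPKM per list in TRPV3 libraries and to at most 3, 1.8 and 2.58 FPKM in mock libraries.

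The largest differences among the 9 genes were in GADD45A and CDKN1A, and none of the 9 passed the limma test after adjustment over all genes. That test called 5 of 12177 genes (0.0411%) in either direction. At an unadjusted p under 0.05, 2 of the 9 were higher with TRPV3 (GADD45A and CDKN1A) and 0 were lower, beside 3.28% and 1.21% of all genes tested (4.48% in either direction). By voom on the recovered reads 0 of the 9 passed after adjustment and 2 did at an unadjusted p under 0.05, beside 0.0493% and 4.34% of all genes tested. The fitted fold change was above 0 in 7 of the 9 genes, beside 53% of all genes (5 of 9 and 32.9% under TPM scaling), and the median of the 9 was 0.12, beside 0.01 over all genes (log2 of FPKM + 1, TRPV3 over mock). The median of the 9 was 0.09 without TRPV3 replicate 1, 0.08 without TRPV3 replicate 2 and 0.04 without mock replicate 2. The members and lists were chosen with earlier results of these data known.

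**Figure D1:**
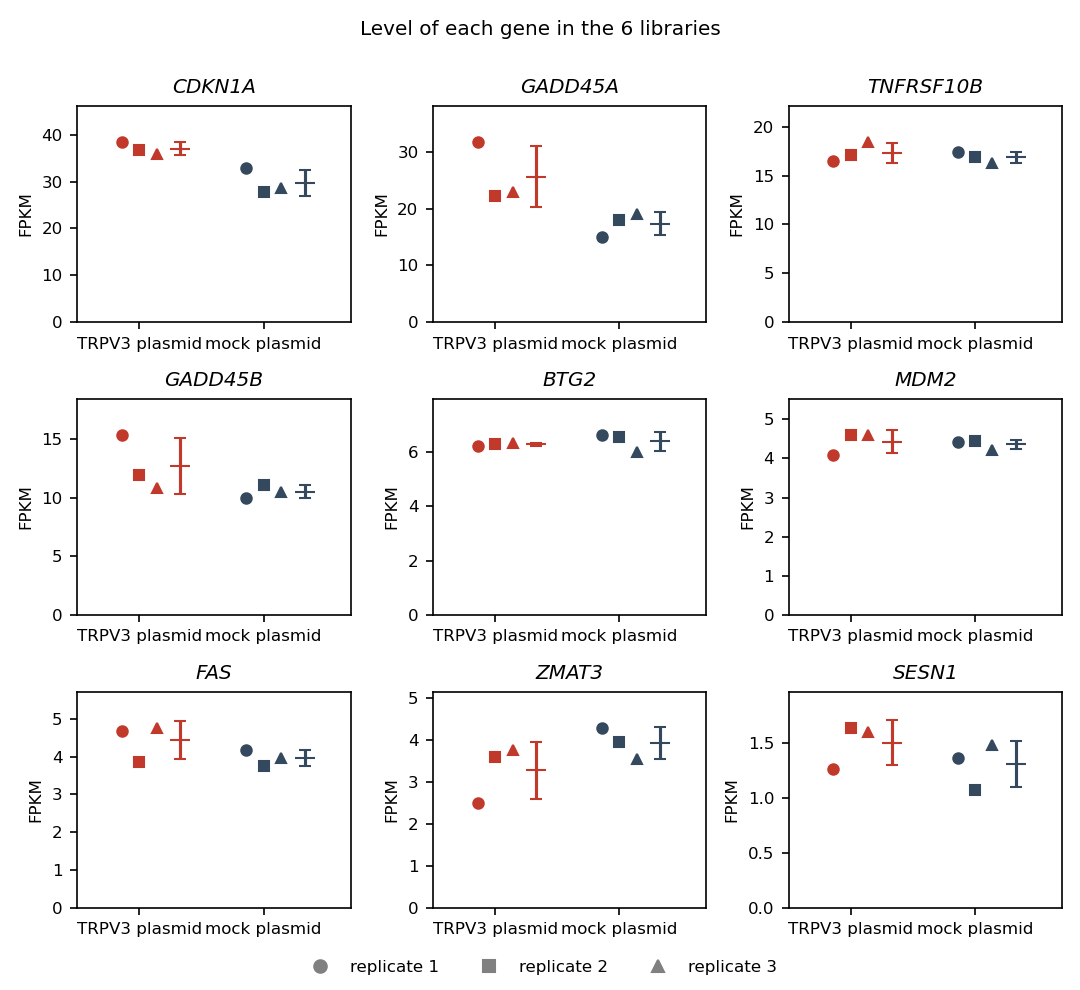
Level of each of the 9 genes (FPKM, vertical axes from 0) in the 3 TRPV3 libraries (left, red) and the 3 mock libraries (right, blue); bars at the right of each group are the mean ± SD. The groups do not overlap in CDKN1A and GADD45A and overlap in the other 7 panels.

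Among the growth arrest genes, CDKN1A (ENSG00000124762, chromosome 6, 36676460 to 36687339, plus strand, hg38) was the most abundant of the 9. It was at 38.5, 36.7 and 35.9 FPKM in TRPV3 replicates 1 to 3, against 32.9, 27.8 and 28.6 FPKM in mock replicates 1 to 3. All 3 TRPV3 libraries lay above all 3 mock libraries, and mock replicate 1 came nearest. The ratio of means was 1.245 and the log2 fold change 0.31 (SE 0.088, 95% interval 0.10 to 0.52, adjusted p = 0.755 by limma; unadjusted 0.00964; exact two-sided permutation p = 0.1). With 3 against 3 libraries, 0.1 is the smallest p that the permutation test can give. Without TRPV3 replicate 1 the log2 fold change was 0.28 (limma adjusted p = 0.443), and over 17 alternatives it ran from 0.22 to 0.38 with limma or voom adjusted p between 0.153 and 0.966.

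GADD45A (ENSG00000116717, chromosome 1, 67685061 to 67688338, plus strand), whose small acidic protein binds p21 and stress kinases, had the largest fold change of the 9. Its level was 31.8, 22.2 and 22.9 FPKM in TRPV3 replicates 1 to 3, against 15.0, 18.0 and 19.0 FPKM in mock replicates 1 to 3. The groups did not overlap, but TRPV3 replicate 1 stood far above the other TRPV3 libraries. The ratio of means was 1.48 and the log2 fold change 0.53 (SE 0.154, 95% interval 0.16 to 0.89, limma p = 0.0112, adjusted p = 0.755; exact permutation p = 0.1). Without TRPV3 replicate 1 it was 0.37 (limma adjusted p = 0.423), and with a gene-length trend removed from each library it was 0.42 (limma adjusted p = 0.392). Over 17 alternatives it ran from 0.37 to 0.61 with limma or voom adjusted p between 0.114 and 0.966. Among all genes tested, 99.2% had a fold change no higher than that of GADD45A and 95.9% one no higher than that of CDKN1A.

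The related GADD45B (ENSG00000099860, chromosome 19, 2476122 to 2478259, plus strand) did not separate the groups. It stood at 15.4, 11.9 and 10.9 FPKM with TRPV3, against 9.96, 11.1 and 10.5 FPKM with mock. TRPV3 replicate 1 was the highest library and TRPV3 replicate 3 lay inside the mock range. Its fitted log2 difference was 0.24 (SE 0.127, adjusted p = 0.755 by limma), and 0.11 without TRPV3 replicate 1 or 0.14 after removal of the length trend. The ratio of GADD45B to GADD45A within a library, which does not depend on how libraries are scaled, was 0.484, 0.536 and 0.475 with TRPV3 and 0.663, 0.615 and 0.552 with mock. Every TRPV3 ratio was below every mock ratio, a difference of -0.29 on the log2 scale (exact two-sided permutation p = 0.1, 0.15 after Benjamini-Hochberg adjustment over 3 ratios; n = 3 each). It was -0.27 without TRPV3 replicate 1, and -0.28 after removal of the length trend.

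BTG2 (ENSG00000159388, chromosome 1, 203305491 to 203309602, plus strand), an antiproliferative gene that acts on messenger RNA decay, had groups that overlapped. It was at 6.21, 6.30 and 6.32 FPKM with TRPV3, against 6.63, 6.53 and 5.99 FPKM with mock, so the TRPV3 libraries lay inside the mock range. The log2 fold change was -0.02 with a 95% interval of -0.19 to 0.15 (limma adjusted p = 0.923). It was -0.01 without TRPV3 replicate 1, -0.09 after removal of the length trend and -0.11 under TPM scaling.

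In the feedback arm, MDM2 (ENSG00000135679, chromosome 12, 68808176 to 68850686, plus strand) was at 4.08, 4.61 and 4.60 FPKM with TRPV3, against 4.41, 4.43 and 4.22 FPKM with mock. TRPV3 replicate 1 was the lowest of all 6 libraries, and the other 2 TRPV3 libraries were the highest. The log2 fold change was 0.02 (95% interval -0.17 to 0.20, limma adjusted p = 0.933), 0.06 without TRPV3 replicate 1 and 0.16 after removal of the length trend, and its sign turned under 4 of 16 alternatives. Within a library, MDM2 over CDKN1A was 0.106, 0.126 and 0.128 with TRPV3 and 0.134, 0.160 and 0.147 with mock. The log2 ratio differed by -0.30 (exact permutation p = 0.1, 0.15 adjusted over 3 ratios; n = 3 each), by -0.21 without TRPV3 replicate 1 and by -0.09 after removal of the length trend (exact permutation p = 0.8). MDM2 has 13284 exonic bases and CDKN1A 3050.

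The death receptor genes differed little. TNFRSF10B (ENSG00000120889, chromosome 8, 23020133 to 23069179, minus strand), which encodes the TRAIL receptor DR5, was at 16.5, 17.1 and 18.5 FPKM with TRPV3, against 17.5, 16.9 and 16.3 FPKM with mock. The groups overlapped, and the log2 fold change was 0.04 (95% interval -0.14 to 0.21, limma adjusted p = 0.861). It was 0.07 without TRPV3 replicate 1, and its sign turned under 3 of 17 alternatives. FAS (ENSG00000026103, chromosome 10, 88990582 to 89015785, plus strand) was at 4.69, 3.86 and 4.77 FPKM with TRPV3, against 4.18, 3.75 and 3.97 FPKM with mock. In FAS, TRPV3 replicates 1 and 3 lay above all mock libraries and TRPV3 replicate 2 inside their range, a fitted log2 difference of 0.13 (SE 0.0946, adjusted p = 0.755 by limma), or 0.09 without TRPV3 replicate 1. It was 0.21 without TRPV3 replicate 2, 0.08 without TRPV3 replicate 3 and 0.06 under TPM scaling. The ratio of TNFRSF10B to FAS was 3.51, 4.43 and 3.87 with TRPV3 and 4.18, 4.49 and 4.11 with mock (log2 difference -0.12, exact permutation p = 0.3, also 0.3 adjusted over 3 ratios; n = 3 each). That difference was -0.04 without TRPV3 replicate 1, -0.21 without TRPV3 replicate 2 and -0.06 after removal of the length trend.

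ZMAT3 (ENSG00000172667, chromosome 3, 179017223 to 179072279, minus strand) had the lowest fold change of the 9. It was at 2.49, 3.58 and 3.74 FPKM with TRPV3, against 4.29, 3.93 and 3.54 FPKM with mock. TRPV3 replicate 1 was the lowest library by far, and TRPV3 replicates 2 and 3 lay within the mock range. The fitted log2 difference of -0.21 (SE 0.135, adjusted p = 0.755 by limma) was -0.08 without TRPV3 replicate 1, and -0.11 after removal of the length trend, against -0.35 under TPM scaling. SESN1 (ENSG00000080546, chromosome 6, 108986437 to 109094819, minus strand), the least abundant, was at 1.26, 1.64 and 1.60 FPKM with TRPV3, against 1.36, 1.07 and 1.48 FPKM with mock. In SESN1, TRPV3 replicates 2 and 3 exceeded all mock libraries and TRPV3 replicate 1 did not, a fitted log2 difference of 0.12 (SE 0.114, adjusted p = 0.755 by limma), or 0.19 without that library. It was 0.04 without mock replicate 2, and 0.08 without TRPV3 replicate 2.

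**Figure D2:**
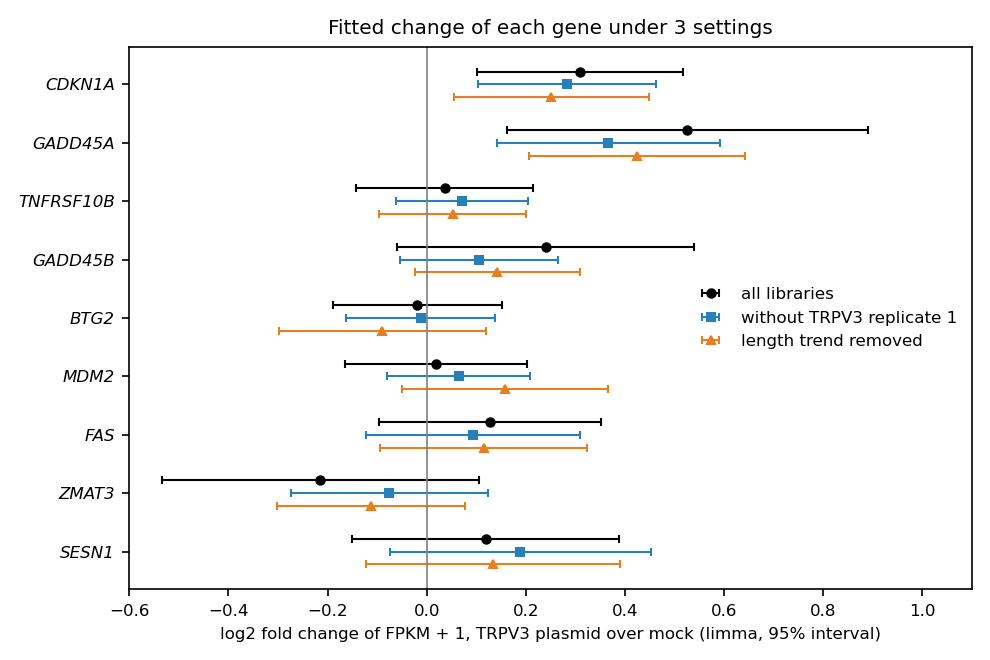
Fitted log2 fold change of FPKM + 1 (TRPV3 plasmid over mock, points) with its 95% interval for each of the 9 genes, with all libraries, without TRPV3 replicate 1, and with the gene-length trend removed. The intervals of CDKN1A and GADD45A lie above 0 in all 3 settings, before any adjustment for the number of genes, and those of the other 7 cross 0.

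Counted by overlap, 2 of the 9 genes had every TRPV3 library above every mock library and 0 had every one below, beside 9.49% and 5.39% of all genes tested. Without TRPV3 replicate 1, 4 of the 9 were above without overlap (CDKN1A, GADD45A, MDM2 and SESN1) and 0 below, beside 14.1% and 10.1% of all genes. Without mock replicate 3, 2 of the 9 were above and 2 below without overlap (BTG2 and ZMAT3 below), beside 13.7% and 12.1% of all genes. With TRPV3 replicate 2, TRPV3 replicate 3, mock replicate 1 or mock replicate 2 left out, 3, 3, 2 and 3 were above, beside 13.9%, 17.3%, 13.7% and 15.1% of all genes. In those 4 settings 0 of the 9 were below, beside 8.86%, 11%, 8.19% and 8.06%.

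In TRPV3 replicate 1, the GADD45 genes and the long genes ZMAT3 and MDM2 stood on opposite sides of the other TRPV3 libraries. There GADD45A (2069 exonic bases) was 0.48 and GADD45B (2138 bases) 0.40 above the mean of the other 2 TRPV3 libraries on the log2 scale, beside a median of 0.265 over 1485 genes of 2 to 3 kb. BTG2 (2757 bases), of the same length class, was at -0.02. ZMAT3 (9646 bases) was at -0.42 and MDM2 at -0.14, beside a median of -0.33 over genes longer than 9 kb. SESN1 (5121 bases) was at -0.21 and TNFRSF10B (5158 bases) at -0.10, beside -0.11 over 3819 genes of 5 to 9 kb, and CDKN1A at 0.08 and FAS at 0.10, beside 0.09 over 3118 genes of 3 to 5 kb. The part of this length pattern in the fold changes of single genes was not tested, and neither was its origin. TRPV3 replicate 1 was the highest library for 3 of the 9 genes (CDKN1A, GADD45A and GADD45B) and the lowest for 2 (MDM2 and ZMAT3).

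**Figure D3:**
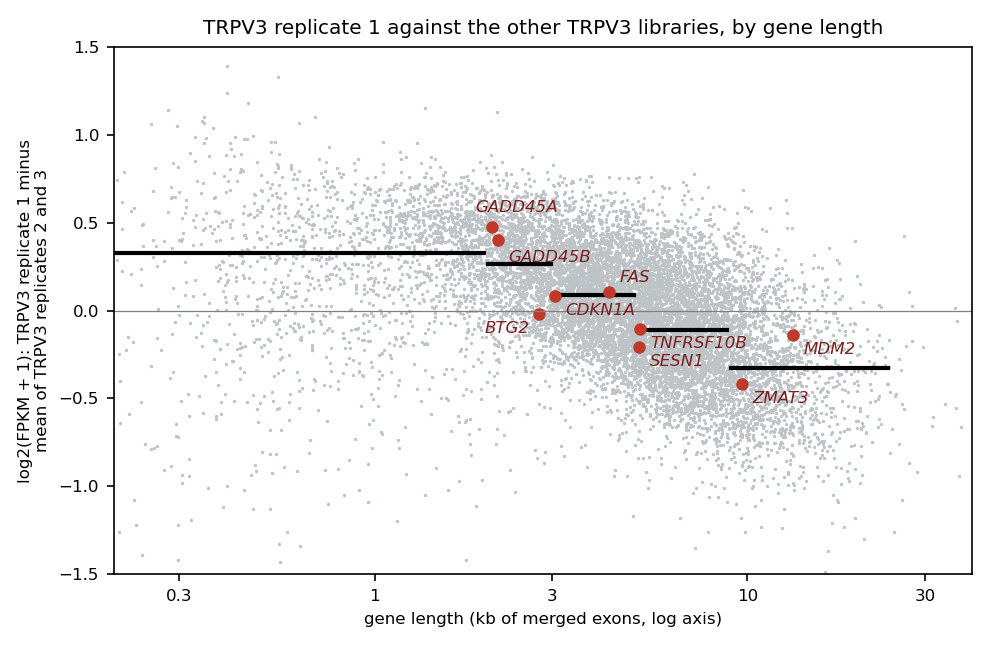
Difference of TRPV3 replicate 1 from the mean of TRPV3 replicates 2 and 3, in log2(FPKM + 1), against gene length (kb of merged exons, log axis) for the genes tested (grey; 241 of 12177 lie outside the axes), with the median in 5 length classes (black bars) and the 9 genes (red). GADD45A and GADD45B lie at 0.48 and 0.40, above the median of their length class, and ZMAT3 at -0.42, below its own.

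By level, which FPKM gives per length, the order was CDKN1A, GADD45A, TNFRSF10B, GADD45B, BTG2, MDM2, FAS, ZMAT3 and SESN1, with means over all 6 libraries of 33.4, 21.5, 17.1, 11.6, 6.33, 4.39, 4.20, 3.60 and 1.40 FPKM. Neighbours in this order did not overlap in either group for 5 of the 8 neighbouring pairs. GADD45A and TNFRSF10B overlapped among mock libraries only, where their means were 17.35 and 16.9 FPKM, while among TRPV3 libraries GADD45A was higher throughout. MDM2 and FAS overlapped among TRPV3 libraries, and FAS and ZMAT3 among mock libraries. The 3 genes whose pattern over the 6 libraries was most like that of CDKN1A were GSKIP (Pearson r = 0.986), DUSP1 (r = 0.984) and SQLE (r = 0.983), out of 32 genes above 0.95; the libraries' shared group difference enters each r, and no test was made.

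No gene of the list of p53 regulators passed the test. CDKN2A, whose ARF product inhibits MDM2, was at 53.3 ± 9.13 FPKM with TRPV3 and 49.5 ± 5.21 FPKM with mock (SD, n = 3 each). These values are for the whole gene and do not separate ARF from other transcripts of CDKN2A. ATM, a kinase that signals DNA breaks, had the smallest p of that list and was at 1.11 ± 0.271 and 1.45 ± 0.0412 FPKM (log2 difference -0.23, limma adjusted p = 0.755). With 23972 exonic bases, it had a log2 difference of -0.12 without TRPV3 replicate 1 and of -0.03 after removal of the length trend. Of 12 genes of that list tested, 0 were called by limma or voom. An unadjusted p under 0.05 was found in 0 by limma and in 1 by voom, beside 4.48% and 4.34% of all genes tested. The fold change was above 0 in 4 of the 12, beside 53% of all genes, and in 2 under TPM scaling, beside 32.9%. The median was -0.06 (0.03 after removal of the length trend, -0.02 without TRPV3 replicate 1, and 0.07 over the 6 above 5 FPKM). It was -0.16 under TPM scaling, -0.11 without TRPV3 replicate 3 and -0.09 without mock replicate 3.

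Of 26 other p53 targets tested, 0 were called by limma or by voom. At an unadjusted limma p under 0.05, 2 were higher and 1 lower, beside 3.28% and 1.21% of all genes tested. By voom 3 passed that level, beside 4.34%. In 14 the fold change was above 0, beside 53% of all genes, and the median was 0.06 (-0.03 under TPM scaling). PMAIP1, which encodes the BH3-only death protein NOXA, had the smallest p of the list and was at 18.0 ± 1.21 FPKM with TRPV3 and 11.3 ± 0.243 FPKM with mock (log2 difference 0.62, SE 0.0771, adjusted p = 0.101 by limma). Without TRPV3 replicate 1 it had a limma adjusted p of 0.0514 and passed by voom (adjusted p = 0.00159), where 0.55% of all genes passed; over 17 alternatives its limma or voom adjusted p ran from 0.00159 to 0.802. The abundant CCNG1, a cyclin that restrains p53, was at 28.5 ± 1.45 and 27.2 ± 1.18 FPKM, and PHLDA3, an inhibitor of AKT, at 28.0 ± 4.99 and 26.3 ± 1.13 FPKM, with TRPV3 and with mock.

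Among 18 tested relatives of the 9 genes, 0 were called by limma or voom. At an unadjusted limma p under 0.05, 2 were higher and 1 lower, beside 3.28% and 1.21% of all genes tested. By voom 2 passed that level, beside 4.34%. The median was 0.08 (0.02 without TRPV3 replicate 1, -0.00284 under TPM scaling). The smallest p was that of CDKN2D, an inhibitor of CDK4 and CDK6, at 4.29 ± 1.05 FPKM with TRPV3 and 2.775 ± 0.319 FPKM with mock (log2 fold change 0.47, limma adjusted p = 0.755; 0.32 without TRPV3 replicate 1). ZMAT2, the most abundant relative, was at 60.5 ± 12.5 and 51.9 ± 1.36 FPKM. SESN2, named after its values were seen, was at 11.9 ± 0.682 FPKM with TRPV3 and 13.7 ± 0.489 FPKM with mock (-0.19, adjusted p = 0.755 by limma). The lists share some genes: SESN2 is also among the other p53 targets, and is the lower gene counted in both lists. Below the filter, GADD45G, the third GADD45 gene, was at 0.485 ± 0.0195 and 0.391 ± 0.0996 FPKM, also named after its values were seen.

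Of 10 tested genes of death receptor signalling, 0 were called by limma or voom, 0 had an unadjusted p under 0.05 by either, and the median was 0.07. A fold change above 0 was found in 10 of the 10, in 8 without TRPV3 replicate 1 and in 3 under TPM scaling. Of all genes tested, 53%, 53.7% and 32.9% were above 0 in these settings. FADD, the adaptor that both receptors recruit, was at 16.6 ± 0.579 FPKM with TRPV3 and 15.9 ± 0.614 FPKM with mock, and BID, which links the receptors to mitochondria, at 18.0 ± 4.13 and 16.3 ± 0.942 FPKM. The ligand gene TNFSF10 lay below the filter at 0.613 ± 0.145 and 0.584 ± 0.141 FPKM, and FASLG, the FAS ligand gene, had no read in a TRPV3 library.

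**Figure D4:**
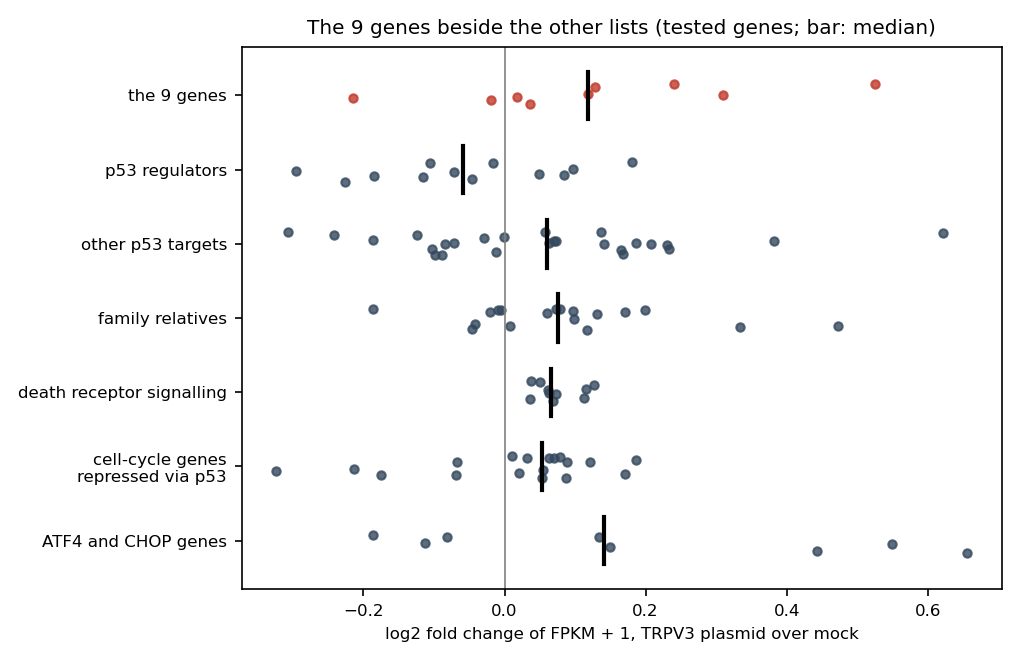
Log2 fold change of FPKM + 1 (TRPV3 plasmid over mock, horizontal axis) of each tested gene of the 9 and of the other lists (rows); black bars are medians. The medians lie between -0.06 and 0.14, and PMAIP1 and ATF3 are the points farthest to the right, at 0.62 and 0.66.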

How the data were processed

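RNA was measured in 6 RNA-seq libraries of SZ95 cells, 3 per group. Per the labels' protocols, total RNA was extracted with TRIzol and made into libraries with a NEBNext Ultra kit. The submitters' processing notes name HISAT2 2.0.5 and hg38; the counting tool and its use of strand are not stated by these sources. The deposited values are FPKM per gene, per the file name; FPKM times gene length gave whole reads in 100% of values (tolerance 0.02 reads). The table's coordinates and exon lengths equalled GENCODE 29. Without strand, reads cannot be split from opposite-strand neighbours. RHOBTB2 (1263 to 1422 reads a library) shares 67 exonic bases with TNFRSF10B, ACTA2 (21 to 55 reads) 380 with FAS and CPM (33 to 39 reads) 133 with MDM2. DINOL shares 146 with CDKN1A, AL390208.1 363 with SESN1 and AC025423.4 785 with MDM2, each with at most 3 reads a library.

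Genes whose mean over the 6 libraries reached 1 FPKM (12177) were fitted as log2(FPKM + 1) with limma 3.58.1 (R 4.3.3; mean-variance trend, Benjamini-Hochberg adjustment, threshold 0.05), after a check on simulated data. Fold changes on this scale understate those of low genes. The simulated data held no library that stood apart, so that check does not cover the length pattern of TRPV3 replicate 1. Replicates are biological per the design text. The members and lists were chosen with earlier results of these data known. Named genes were all 9 and, per list without calls, the 2 most abundant and the one of smallest p; some genes this rule names are not reported here. Alternatives were another pseudocount (0.1), no filter or 5 FPKM, TPM or quantile scaling, no trend, a replicate block, each library left out, length trend removal (lowess, span 0.3), limma-voom on recovered reads with and without TRPV3 replicate 1, and protein-coding genes only. Figures used Python 3.11.15 and matplotlib 3.10.9.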

Additional observations from a re-analysis of the deposited data

How the results depend on the processing

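None of the 9 genes was called by limma or voom under any of 17 alternatives (16 for the 4 genes below 5 FPKM). GADD45A, CDKN1A, GADD45B, FAS and SESN1 kept a fold change above 0 and ZMAT3 one below 0 in each. TNFRSF10B turned to -0.058 under TPM scaling, -0.0081 under quantile scaling and -0.0065 without TRPV3 replicate 3. MDM2 turned to -0.0705 under TPM scaling, -0.0059 and -0.0044 without TRPV3 replicate 2 or 3 and -0.00049 without mock replicate 3, and BTG2 to 0.0048 without mock replicate 1. With a library left out, TNFRSF10B ran up to 0.0713, MDM2 up to 0.0648 and BTG2 down to -0.0581. TPM scaling moved the median of all genes to -0.08. The median of the 9 was 0.0564 under TPM scaling and 0.24 over the 5 genes above 5 FPKM, and 0.0444 to 0.14 with a library left out. Genes called numbered 12 without the filter, 3 at 5 FPKM, 67 by voom without TRPV3 replicate 1 (where 1 other p53 target and 2 ATF4 and CHOP genes were called) and 2 to 8 with a library left out. With a library left out, 2 to 4 of the 9 were above and 0 to 2 below without overlap (4 above by voom without TRPV3 replicate 1), beside 13.7% to 17.3% and 8.06% to 12.1% of all genes tested. With a library left out, the log2 ratios ran from -0.36 to -0.21 for MDM2 over CDKN1A, -0.36 to -0.23 for GADD45B over GADD45A and -0.21 to -0.04 for TNFRSF10B over FAS; MDM2 over CDKN1A was -0.09 after removal of the length trend and -0.20 under quantile scaling. The causes were not tested.

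With the replicate number as a block, 3 genes were called and none of the 9 (limma adjusted p from 0.874). Same-numbered libraries correlated at -0.272, -0.0387 and -0.168 in their deviations from the group means. With 3 libraries per group, and TRPV3 replicate 1 apart from the others, these values cannot settle whether the numbers pair the samples. The smallest exact p that 3 against 3 libraries allow is 0.1.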

Other observations

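Stress genes of the ATF4 and CHOP programme, some of which act on GADD45A, TNFRSF10B and SESN2, were looked at beside the 9 genes. Of 8 tested, 0 were called by limma or voom. At an unadjusted limma p under 0.05, 3 were higher and 1 lower, beside 3.28% and 1.21% of all genes tested. By voom 3 passed that level, beside 4.34%. The median was 0.14 (0.02 without TRPV3 replicate 1). ATF3, a stress-induced transcription factor, had the smallest p and was at 3.605 ± 0.387 FPKM with TRPV3 and 1.93 ± 0.398 FPKM with mock (SD, n = 3 each; log2 difference 0.66, SE 0.125, adjusted p = 0.374 by limma). It passed by voom without TRPV3 replicate 1 (adjusted p = 0.00621), where 0.55% of all genes passed. So did PPP1R15A, also called GADD34, named after its values were seen (19.9 ± 1.97 and 13.3 ± 1.35 FPKM with TRPV3 and with mock, voom adjusted p = 0.0101). Over all alternatives run, the limma or voom adjusted p ran up to 0.966 for both. The abundant ATF4 was at 186 ± 34.0 and 166 ± 6.75 FPKM, and DDIT4, an inhibitor of mTOR, at 134 ± 5.10 and 142 ± 10.9 FPKM.

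Cell-cycle genes, listed as repressed by p53 through p21, were also looked at. Whether p53 acts on each of them in these cells, and in which direction, was not tested. PCNA, the sliding clamp of DNA replication and the most abundant of them, was at 230 ± 43.8 FPKM with TRPV3 and 214 ± 9.67 FPKM with mock, and CCNB1, a mitotic cyclin, at 98.8 ± 11.9 and 93.7 ± 2.89 FPKM (SD, n = 3 each). Of 18 tested, 0 were called by limma or voom and 0 had an unadjusted p under 0.05 by either. The fold change was above 0 in 13 of the 18, beside 53% of all genes, and in 6 without TRPV3 replicate 1, beside 53.7%. The median was 0.05, or -0.01 without TRPV3 replicate 1 (-0.04 under TPM scaling and under quantile scaling). CDC25A, a phosphatase that activates cyclin-dependent kinases, had the smallest p (11.5 ± 1.15 and 9.93 ± 0.305 FPKM with TRPV3 and with mock; limma adjusted p = 0.755).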
